A study of Homo sapiens with 6 samples.

Results

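The genes described here encode the constitutive proteasome: the subunits of the 20S core and of the 19S regulatory particle, with assembly factors and regulators that act on them. They were taken as the protein-coding genes whose symbol is PSMA, PSMB, PSMC or PSMD followed only by a number, together with POMP, PSMF1 and PSME3, and without the immunoproteasome subunits PSMB8, PSMB9 and PSMB10 and without pseudogenes. This gave 39 genes of the 59715 gene IDs in the deposited table, and 37 of them were among the 14543 genes with enough counts to be tested. The rule uses no measured value, but it was chosen with earlier results of these data known.

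RNA of HCT116, an established human colorectal carcinoma line, was sequenced after poly(A) selection in 3 libraries labelled MLL4KO, from cells in which the histone methyltransferase MLL4 was knocked out, and in 3 libraries labelled MLL4WT, from cells with MLL4 intact. Both genotypes were grown in the same medium with 10% serum, and no other allele or treatment is named. The knockout cells were received from another laboratory, and neither the place of the deletion nor the number of clones is named. Nor do the labels state that replicates were grown apart, and p-values then reflect only how much these libraries vary, which may be technical variation.

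The proteasome degrades proteins that carry ubiquitin chains. The barrel-shaped 20S core has outer rings of alpha subunits (PSMA genes), which gate the entry, and inner rings of beta subunits (PSMB genes), among which PSMB5, PSMB6 and PSMB7 carry the catalytic sites. The 19S particle caps the barrel: its base holds a ring of ATPases (PSMC genes) that unfold substrates, with PSMD1, PSMD2 and the ubiquitin receptor PSMD4, and its lid holds the deubiquitinase PSMD14 and its supporting subunits. Because these subunits are needed together, their genes are known to be transcribed in a coordinated way in many human cells, with NFE2L1 raising them when proteasome activity is low.

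Library totals ranged from 6829400 to 19736751 counts. MLL4WT replicate 1 was the shallowest and stood apart from the other MLL4WT libraries: a chi-square test of counts over genes gave 7.91 and 7.80 per degree of freedom in its pairs with replicates 2 and 3, and at most 2.48 in every other pair within a genotype. A code in each column name was read here as the flow cell, which the labels do not state. By this reading MLL4WT replicate 1 was alone on its flow cell. MLL4KO replicate 1 shared one with MLL4WT replicate 3, and MLL4KO replicates 2 and 3 shared one with MLL4WT replicate 2. KMT2D, the gene usually meant by MLL4, was at 229.5, 243 and 225 CPM (library-size-scaled counts, with TMM factors) in MLL4KO replicates 1 to 3 and at 239.7, 231 and 234 CPM in MLL4WT replicates 1 to 3 (edgeR adjusted p = 0.832). KMT2B, a related gene for which the name MLL4 has also been used, was at 67.1, 61.9 and 60.6 CPM in MLL4KO and 94.1, 90.3 and 87.2 CPM in MLL4WT libraries and fell by 29.8% (adjusted p = 2.33e-05). The labels do not say which gene they mean or which part was deleted, so neither level checks them. The colorectal epithelial markers EPCAM, KRT8, KRT18 and KRT19 were abundant in every library, CDX2 and CDH1 were present at lower levels, and VIL1 reached at most 1.19 CPM. Summed, the 7 epithelial markers stood at 1082 to 1105 CPM in MLL4KO and 1607 to 1670 CPM in MLL4WT libraries. Of the 6 tested, 4 fell in MLL4KO (66.7%, against 21.6% of all tested genes, adjusted p under 0.05). The part of this in the results below was not tested. The 8 markers of other cells summed to 31.7 to 33.5 CPM in MLL4KO and 30.6 to 35.5 CPM in MLL4WT libraries, mostly the collagen gene COL1A1, with the T-cell marker CD3E at 0 in 5 of 6 libraries. The collagen genes moved in opposite directions: COL1A1 rose 1.22-fold (27.3 CPM in MLL4KO and 22.4 CPM in MLL4WT on average, adjusted p = 0.0106) and COL3A1 fell by 85.5% (0.776 CPM in MLL4KO and 5.22 CPM in MLL4WT, adjusted p = 1.57e-05). Their part in the results below was not tested.

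Some proteasome transcripts were modestly lower in MLL4KO cells, and how many passed depended on single libraries. Of the 37 tested genes, 16 fell in MLL4KO cells, 1 rose and 20 did not pass the test (edgeR quasi-likelihood test, adjusted p under 0.05 over all 14543 genes). Thus 43.2% of the proteasome genes fell and 2.70% rose, against 21.6% and 19.8% of all tested genes. With total counts in place of TMM factors 11 proteasome genes fell and 3 rose, while of all tested genes 2394 fell and 3706 rose, against 3136 and 2885 with TMM. The falls were small, from 8.39% to 25.2%, and the median log2 fold change was -0.10 over the 37 genes and -0.004 over all tested genes. The median over the 37 genes varied between the MLL4WT libraries with an SD of 0.098 on the log2 scale, about the size of this shift. In RNA of a bulk culture, fewer cells that transcribe a gene and less RNA per cell cannot be told apart.

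MLL4WT replicate 1 was the lowest of the MLL4WT libraries in 31 of the 37 genes and the highest in 4. Its median log2 ratio to the mean of MLL4WT replicates 2 and 3 was -0.17 over the proteasome genes and -0.0002 over all tested genes, whose middle range ran from -0.16 to 0.18. Without it, 27 proteasome genes fell and 1 rose, against a background of 25.7% of genes that fell and 23.7% that rose, and the median log2 fold change was -0.13. The 16 genes that fell with all libraries all fell without it, with 11 more. A fit with the flow cell as a term, which gives MLL4WT replicate 1 a term of its own and so takes nothing from it, called the same 27 falls and 1 rise, with 27.4% of all genes falling and 23.9% rising. The other left-out libraries lowered the counts of falls, among the proteasome genes and among all tested genes. Without MLL4WT replicate 2 or replicate 3, 13 proteasome genes fell. The median log2 fold change was -0.0592 without replicate 2 and -0.0434 without replicate 3. Of all tested genes 2597 and 2642 fell in these fits, against 3136 with all libraries. Leaving out MLL4KO replicate 2 gave 9 falls and no rise among the proteasome genes, with a median of -0.0758. Of all tested genes 2316 fell and 2163 rose in that fit. Why these libraries differ was not tested.

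The genotypes could also be compared on each flow cell, as read from the codes, that held both, which again leaves out MLL4WT replicate 1. In 31 of the 37 genes MLL4KO lay below MLL4WT on both flow cells, as in 41.7% of all tested genes, and in 4 it lay above on both, as in 39.9% of all tested genes. The median log2 ratio of the proteasome genes was -0.15 for MLL4KO replicate 1 over MLL4WT replicate 3 and -0.13 for MLL4KO replicates 2 and 3 over MLL4WT replicate 2, while over all tested genes it was -0.007 and -0.008. The MLL4KO libraries lay close together: the median log2 range over the 37 genes was 0.053 among the 3 MLL4KO libraries and 0.20 among the 3 MLL4WT libraries.

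**Figure D1:**
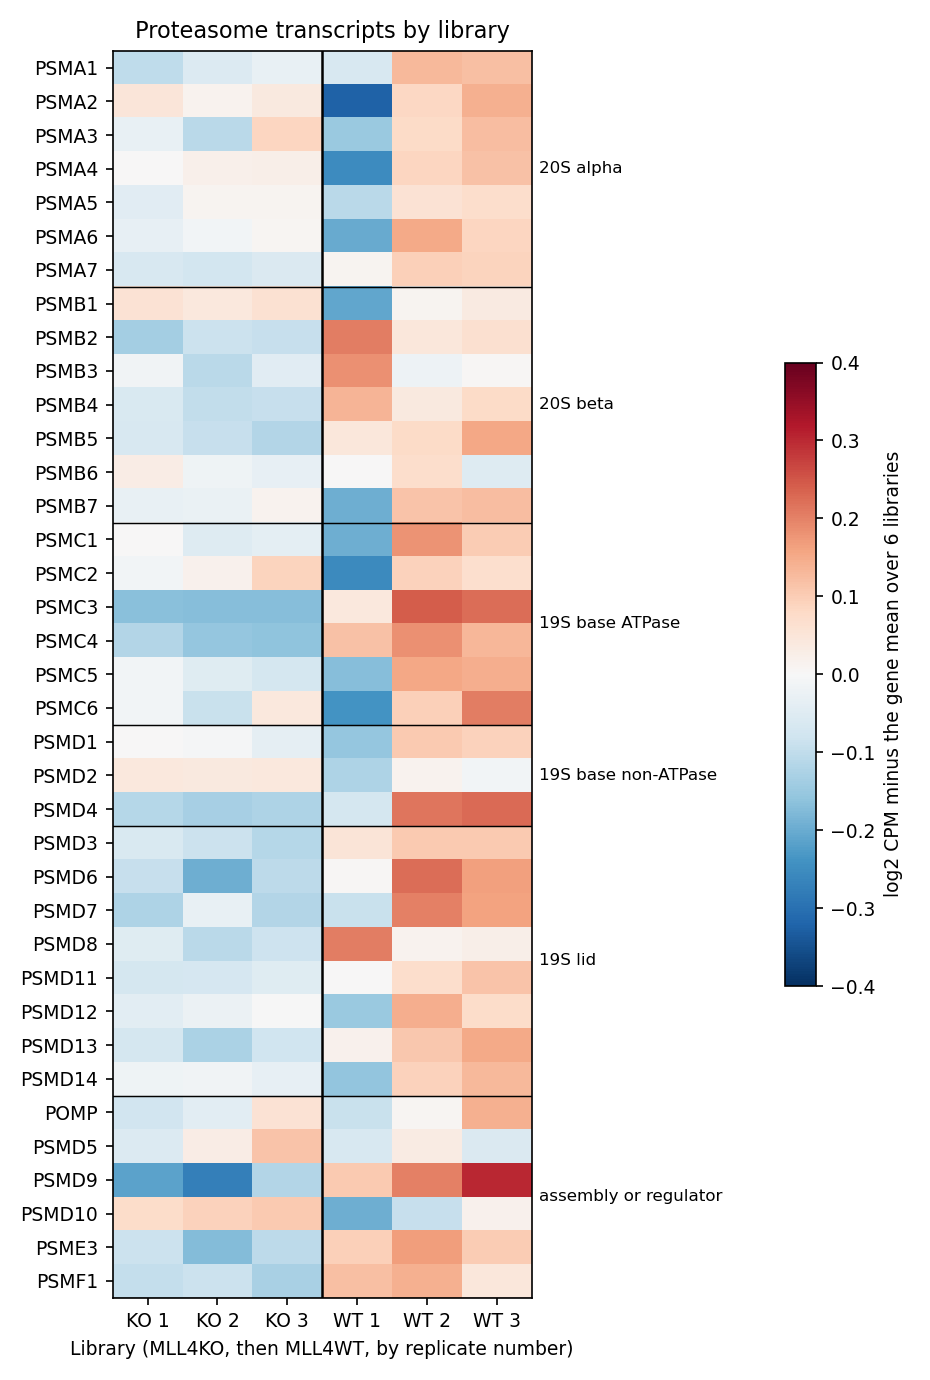
Levels of the 37 tested proteasome genes in the 6 libraries, as log2 CPM minus each gene's mean over the libraries (colour scale), with MLL4KO replicates 1 to 3 left of MLL4WT replicates 1 to 3 and genes grouped by subcomplex. MLL4WT replicates 2 and 3 are the higher columns for most genes, and MLL4WT replicate 1 is the lowest of the MLL4WT libraries in 31 of the 37.

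Summed over all 39 genes, proteasome transcripts made up 7661, 7596 and 7681 CPM in MLL4KO replicates 1 to 3 and 7647, 8449 and 8430 CPM in MLL4WT replicates 1 to 3. MLL4WT replicate 1 thus lay within the MLL4KO range, and the other MLL4WT libraries lay above it. The MLL4KO mean of 7646 ± 44.6 CPM was 93.5% of the MLL4WT mean of 8175 ± 457 CPM (SD, n = 3 each), and 90.6% of the mean of MLL4WT replicates 2 and 3. The 20S genes summed to 2915, 2901 and 2942 CPM in MLL4KO libraries and 2904, 3144 and 3173 CPM in MLL4WT libraries, and the 19S genes to 4004, 3957 and 3974 CPM in MLL4KO and 3946, 4466 and 4426 CPM in MLL4WT. The ratio of the 20S to the 19S sum was 0.728, 0.733 and 0.740 in MLL4KO and 0.736, 0.704 and 0.717 in MLL4WT, so that the genotypes overlapped.

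**Figure D2:**
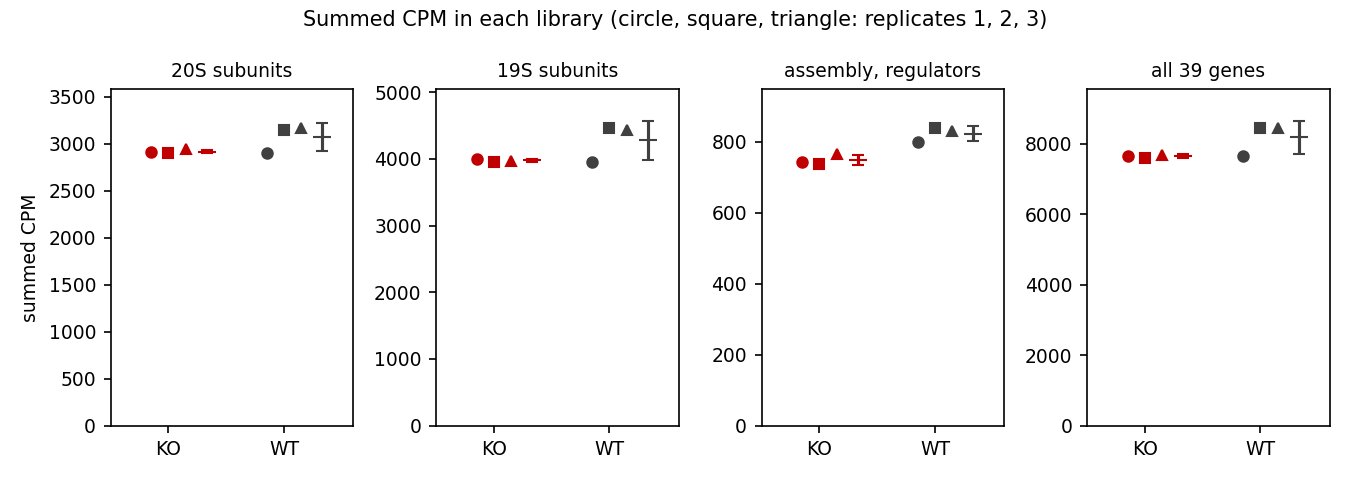
Summed CPM of the 20S, the 19S, the assembly and regulator genes and all 39 proteasome genes, one point per library with MLL4KO left of MLL4WT, and the mean ± SD (n = 3). In the sum over all 39 genes, MLL4WT replicate 1 (7647 CPM) lies among the MLL4KO libraries and the other MLL4WT libraries lie above them.

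The lid held the largest share of falls with TMM factors; with total counts it was 3 of 8 genes, against 3 of 6 assembly factors and regulators. Of the 8 lid genes, 6 fell (PSMD3, PSMD6, PSMD7, PSMD8, PSMD11 and PSMD13) and the other two, PSMD12 and the deubiquitinase PSMD14, did not pass, with a median log2 fold change of -0.17; without MLL4WT replicate 1 all 8 fell. Of the 6 base ATPases 2 fell (median -0.09), and 5 without that library, and of the 3 other base genes 1 fell (median -0.04), and 2 without it. Among the 20S genes, 1 of 7 tested alpha subunits fell (median -0.05), and 5 without MLL4WT replicate 1, and 3 of 7 tested beta subunits fell (median -0.11), and 4 without it. Of the 6 assembly factors and regulators 3 fell and 1 rose, with and without that library. The shares of falls were 75% in the lid, 33.3% in each base group, 14.3% in alpha subunits and 42.9% in beta subunits. The share was 50% in assembly factors and regulators. Of all tested genes 21.6% fell and 19.8% rose, and without MLL4WT replicate 1 25.7% fell and 23.7% rose. The alpha share with all libraries thus lay below that of all tested genes. With total counts 2394 of all 14543 tested genes fell. Differences between the subcomplexes were not tested.

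The ATPases of the base are described first. PSMC3 (chr11:47418769-47426473), an ATPase that also contacts ubiquitin chains, had 172, 171 and 171 CPM in MLL4KO replicates 1 to 3 and 198, 228 and 225 CPM in MLL4WT replicates 1 to 3. The 3 MLL4KO values lay below all MLL4WT values, and the gene fell by 21.3% (log2 -0.35 ± 0.05, edgeR adjusted p = 0.000318). PSMC4 (chr19:39971005-39981441), another ATPase of the ring, had 229, 223 and 222 CPM in MLL4KO and 269, 281 and 272 CPM in MLL4WT libraries. Its groups did not overlap, and it fell by 18.2% (log2 -0.29 ± 0.04, adjusted p = 0.000196). Here MLL4WT replicate 1 lay near its group, with a log2 ratio to the other MLL4WT libraries of -0.04. The other 4 ATPases did not pass: log2 fold changes were -0.08 for PSMC1, 0.04 for PSMC2, -0.10 for PSMC5 and -0.08 for PSMC6, each with MLL4WT replicate 1 at -0.32 or less on the log2 scale relative to the other MLL4WT libraries. Without it PSMC1, PSMC5 and PSMC6 fell (log2 -0.16, -0.19 and -0.17), and PSMC2 was at -0.04 (adjusted p = 0.32).

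Among the other base genes, PSMD4 (chr1:151254703-151267479), a receptor for ubiquitin chains, had 172, 170.3 and 171 CPM in MLL4KO and 178, 216 and 218 CPM in MLL4WT libraries. All MLL4KO values lay below the lowest MLL4WT value, that of replicate 1, and PSMD4 fell by 16.7% (log2 -0.26 ± 0.07, edgeR adjusted p = 0.00933), a call lost without MLL4KO replicate 2 (adjusted p = 0.0501). The scaffold subunits PSMD1 (log2 -0.04) and PSMD2 (0.08) did not pass. PSMD2 had 649.8, 648 and 650 CPM in MLL4KO and 580.1, 638 and 628 CPM in MLL4WT libraries, so that each MLL4KO library lay above each MLL4WT library.

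In the lid, PSMD6 (chr3:64010549-64024010) had 115, 107 and 114 CPM in MLL4KO and 123, 143 and 137 CPM in MLL4WT libraries. The groups did not overlap, and PSMD6 fell by 17.2% (log2 -0.27 ± 0.06, edgeR adjusted p = 0.00309). PSMD3 (chr17:39980797-39997960) had 315, 309 and 303 CPM in MLL4KO and 340.1, 352 and 353 CPM in MLL4WT libraries, again with no overlap. It fell by 11.5% (log2 -0.18 ± 0.04, adjusted p = 0.0053), but the call was lost once trends with GC content and length were taken out (log2 -0.08, adjusted p = 0.117). PSMD13 (chr11:236546-252984) had 190.4, 183 and 189 CPM in MLL4KO and 202, 216 and 222 CPM in MLL4WT libraries. The MLL4KO libraries were all lower, and it fell by 12.2% (log2 -0.19 ± 0.05, adjusted p = 0.0074), a call lost without MLL4KO replicate 2 (adjusted p = 0.0585).

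The other lid genes that fell, PSMD7, PSMD8 and PSMD11, passed less firmly. PSMD7, the partner of the deubiquitinase PSMD14, fell by 12.8% (edgeR adjusted p = 0.0367), and it alone of the 16 had overlapping groups, with 118, 126 and 119 CPM in MLL4KO and 121, 148 and 144 CPM in MLL4WT libraries. PSMD8 fell by 10.4% (adjusted p = 0.0345) and PSMD11 by 8.39% (adjusted p = 0.0358). PSMD7 stayed called in 8, PSMD8 in 11 and PSMD11 in 7 of 17 alternatives, which were 11 other settings and 6 left-out libraries. PSMD7 and PSMD11 were lost without any 1 library other than MLL4WT replicate 1 (adjusted p = 0.0696 to 0.171), and PSMD8 without any 1 MLL4KO library (adjusted p = 0.0936 to 0.161). PSMD8 was highest in MLL4WT replicate 1, and without it the log2 fold change was -0.09 (adjusted p = 0.0127). PSMD12 (log2 -0.06) and PSMD14 (-0.06) passed once that library was left out (adjusted p = 0.000612 and 0.00184).

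The catalytic beta subunits did not move as one. PSMB5 (chr14:23016543-23035230), which carries the chymotrypsin-like site, had 194, 190.5 and 187 CPM in MLL4KO and 209.8, 214 and 226 CPM in MLL4WT libraries. Its MLL4KO values lay below all MLL4WT values, and it fell by 12.2% (log2 -0.19 ± 0.05, edgeR adjusted p = 0.00605). PSMB6 (chr17:4796144-4798503), with the caspase-like site, had 154, 149 and 147 CPM in MLL4KO and 151, 158 and 145 CPM in MLL4WT libraries. The groups overlapped (log2 -0.01 ± 0.05, adjusted p = 0.837), and removing GC and length trends gave a rise (log2 0.12, adjusted p = 0.0305). PSMB7 (chr9:124353466-124415444), with the trypsin-like site, had 231, 231 and 238 CPM in MLL4KO and 206, 256 and 257 CPM in MLL4WT libraries. The MLL4KO values lay between MLL4WT replicate 1 and the other two MLL4WT libraries, with a log2 fold change of -0.04 ± 0.07 (adjusted p = 0.659) and of -0.13 (adjusted p = 0.000539) without that replicate. Differences among the catalytic genes were not tested.

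Of the non-catalytic beta subunits, PSMB2 (chr1:35599544-35641844) had 250.1, 259 and 258 CPM in MLL4KO and 317, 284 and 288 CPM in MLL4WT libraries. MLL4WT replicate 1 was here the highest, and PSMB2 fell by 13.4% (log2 -0.21 ± 0.05, edgeR adjusted p = 0.00546) and by a log2 of -0.15 without it. PSMB4 (chr1:151399534-151401944) had 254, 247 and 248 CPM in MLL4KO and 291, 272 and 279 CPM in MLL4WT libraries, with no overlap. It fell by 10.8% (log2 -0.17 ± 0.04, adjusted p = 0.00923), a call kept in 12 of the 17 alternatives. It was lost without MLL4KO replicate 2 or 3 (adjusted p = 0.0647 and 0.0548), with total counts or upper quartile factors, and with GC and length trends removed (adjusted p = 0.202). PSMB3 (log2 -0.11) did not pass. PSMB1 (log2 0.10, adjusted p = 0.214) was higher in each MLL4KO library, at 229.8, 228 and 230.4 CPM, than in any MLL4WT library, at 191, 223 and 226 CPM. PSMB11, the thymus-specific subunit, had 1 count in MLL4KO and 0 in MLL4WT libraries and was not tested.

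Among the alpha subunits, PSMA7 fell by 8.81% (edgeR adjusted p = 0.0248) and no other passed. It had 359, 357 and 361 CPM in MLL4KO and 378, 401 and 399.6 CPM in MLL4WT libraries. Its groups did not overlap, but the call held in only 8 of the 17 alternatives and, of the left-out libraries, only without MLL4WT replicate 1 (adjusted p = 0.0842 to 0.114 without any other). PSMA1 to PSMA6 ranged in log2 fold change from -0.13 (PSMA1) to 0.04 (PSMA2), and each had its lowest MLL4WT value in replicate 1. Without that library PSMA1, PSMA3, PSMA4 and PSMA6 fell too, by log2 values of -0.18, -0.11, -0.08 and -0.12, while PSMA2 and PSMA5 did not pass. PSMA8, a testis-specific relative of PSMA7, had 1 count in MLL4KO and 2 in MLL4WT libraries and was not tested.

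PSMD9 showed the largest fall of the 37 genes. PSMD9 (chr12:121888731-121918297), a chaperone that helps to assemble the base ATPase ring, had 44.3, 42.5 and 47.4 CPM in MLL4KO and 55.3, 59.2 and 63.4 CPM in MLL4WT libraries. Its groups did not overlap, and it fell by 25.2% (log2 -0.42 ± 0.07, edgeR adjusted p = 0.000354). PSMD10 (chrX:108084207-108091618), also called gankyrin and likewise a chaperone of that ring, was the only one of the 37 to rise, with 73.8, 74.8 and 75.5 CPM in MLL4KO and 61.4, 65.9 and 71 CPM in MLL4WT libraries. The MLL4KO values lay above all MLL4WT values and the rise was 1.12-fold (log2 0.16 ± 0.06, adjusted p = 0.0386), called in 11 of the 17 alternatives and lost without any 1 of the 3 MLL4KO libraries or without MLL4WT replicate 2 (adjusted p = 0.07 to 0.101). PSMD5, a further chaperone of the base, did not pass (log2 0.06, adjusted p = 0.453), and neither did POMP, which matures the 20S core (log2 -0.05, adjusted p = 0.536).

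Both regulators fell. PSME3 (chr17:42824385-42843758), a nuclear activator of the 20S core, had 250.1, 236 and 247 CPM in MLL4KO and 284, 299 and 285 CPM in MLL4WT libraries. No library of one genotype reached the other, and PSME3 fell by 15.5% (log2 -0.24 ± 0.04, edgeR adjusted p = 0.00098). PSMF1 (chr20:1113263-1189415), a 20S-binding regulator known as PI31, had 153, 154 and 149 CPM in MLL4KO and 177, 180.4 and 169 CPM in MLL4WT libraries. The groups were again apart, and PSMF1 fell by 13.2% (log2 -0.20 ± 0.05, adjusted p = 0.00367).

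**Figure D3:**
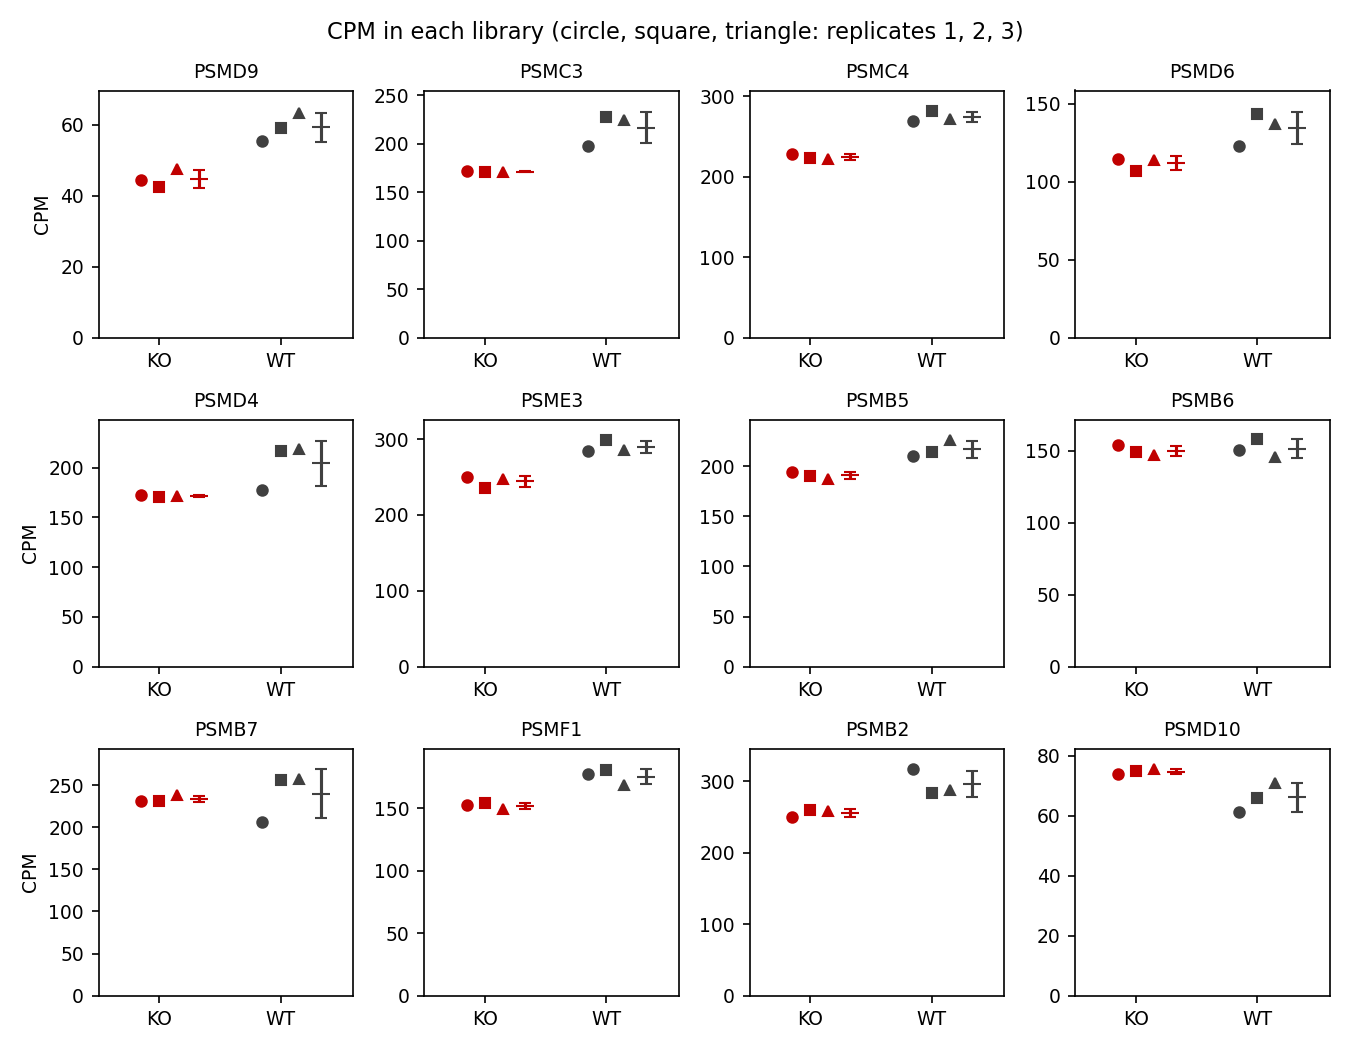
CPM of 12 proteasome genes in each library, MLL4KO left of MLL4WT, with bars at the mean ± SD (n = 3). In PSMD9, PSMC3 and PSMC4 every MLL4KO point lies below every MLL4WT point, PSMB6 and PSMB7 overlap, and PSMD10 lies higher in MLL4KO.

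Of the 37 genes, 15 had every MLL4KO library below every MLL4WT library, as did 26.6% of all tested genes, and 3 (PSMB1, PSMD2 and PSMD10) had every MLL4KO library above, as did 25.9% of all tested genes. The 15 were all among the 16 that fell. Of the 16, 9 stayed called whichever library was left out. Under all 17 alternatives 8 stayed called: PSMC3, PSMC4, PSMD6, PSMB2, PSMB5, PSMD9, PSME3 and PSMF1. The matching shares over all tested genes were not counted, so whether the proteasome genes differ from them in this is not known. Across the 20 genes that did not pass, 95% intervals of the log2 fold change reached from -0.26 to 0.24, so that differences of the size seen in the genes that fell were not detectable in some of them at this replicate spread.

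**Figure D4:**
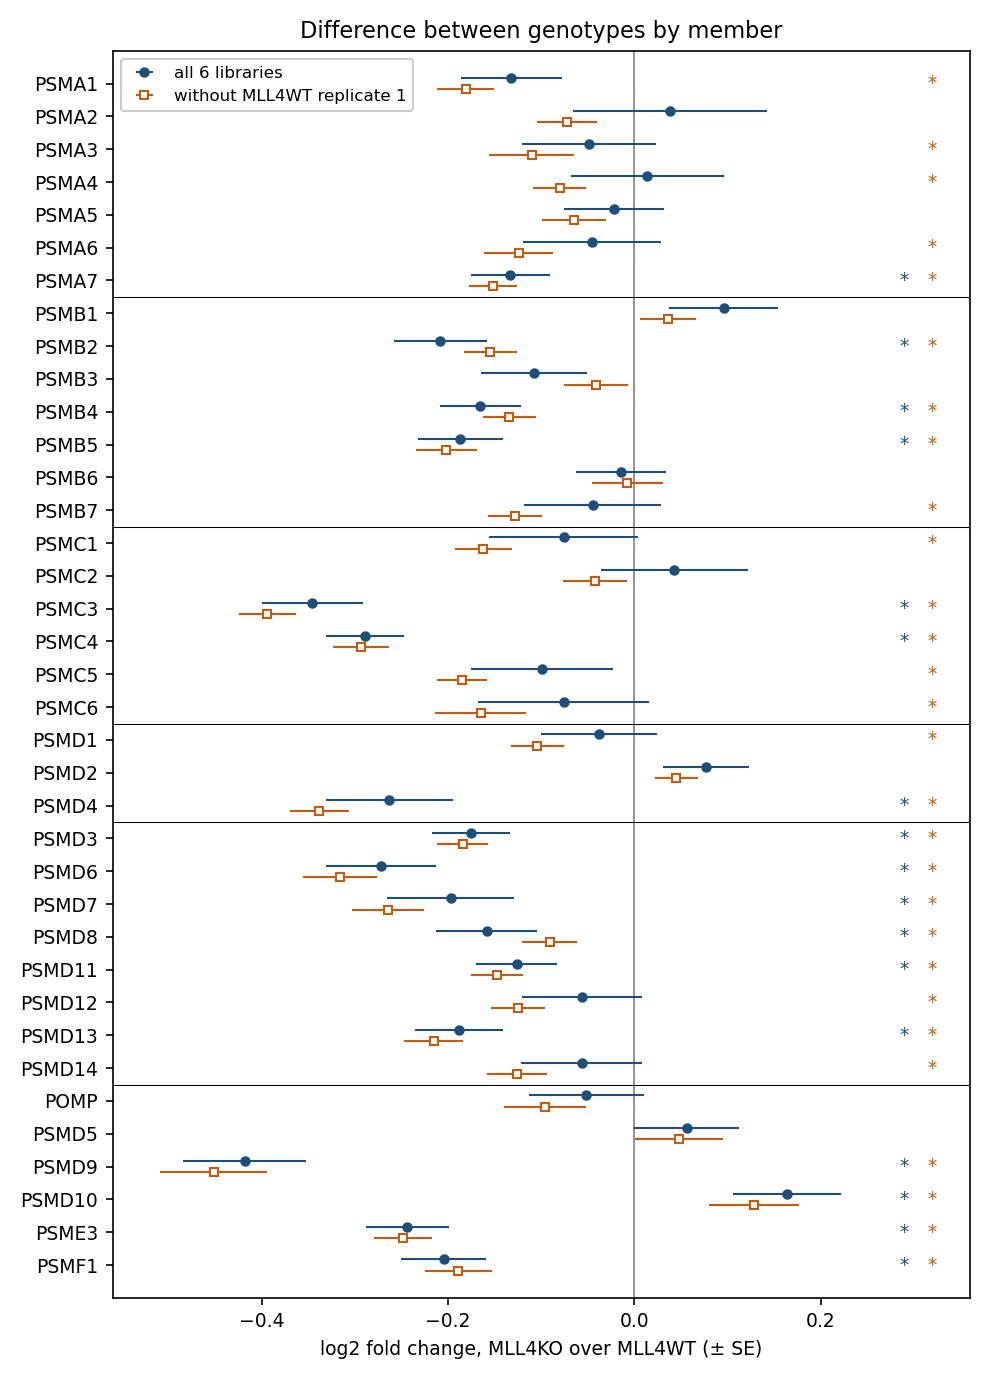
Log2 fold change of MLL4KO over MLL4WT with its standard error for the 37 tested proteasome genes, from all 6 libraries (blue) and without MLL4WT replicate 1 (orange), asterisks marking an adjusted p under 0.05 in that fit. With all libraries 16 genes fell and 1 rose, and without MLL4WT replicate 1 it was 27 and 1.

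For a few genes the counts depend on how reads were shared out. PSMC1 shares 4671 of its 6161 annotated exon bases with NRDE2 on the opposite strand, and the labels do not say that the library kit keeps strand. Its pseudogene PSMC1P1 had 367, 347 and 380 counts in MLL4KO and 133, 159 and 425 counts in MLL4WT libraries, not scaled for depth. MLL4WT replicates 1 to 3 held 6829400, 15013035 and 17828774 counts in all. For its depth MLL4WT replicate 2 thus had the fewest PSMC1P1 counts of the MLL4WT libraries. PSMA2 shares 781 of 5336 exon bases with a readthrough gene on its own strand, PSMC5 shares 874 of 4490 with FTSJ3 and PSME3 shares 300 of 5152 with BECN1, both on the opposite strand. PSMD13 shares 316 of 4767 with SIRT3, also on the opposite strand, PSMD7 shares 842 of 2740 with a noncoding gene on the opposite strand, and PSMA1 shares 814 of 3301 and PSMD9 1307 of 8774 with genes on their own strand. The partners of PSMD7, PSMA1 and PSMD9 named so far had few counts, at most 56, 42 and 19 in a library. PSMD9 also shares 436 exon bases with WDR66 on its own strand, which had at most 50 counts. Other partners had more counts in a library: 995 to 3202 for FTSJ3, 501 to 1379 for BECN1 and 205 to 823 for NRDE2. SIRT3 had 102 to 306 and the readthrough gene at PSMA2 had 74 to 261. How reads were shared among these genes is not known from the counts.

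Promoter sequences are shown for the 3 falls with the smallest adjusted p, PSMD9, PSMC3 and PSMC4, and for PSMD10, which rose. They are the 250 bases before the start that RefSeq annotates ( GRCh38.p14), written 5′ to 3′ on the gene's strand, with capitals marking matches on either strand to TGACNNNGC, the core of antioxidant response elements that NFE2L1 and NFE2L2 bind with small MAF proteins, to CCAAT, the box bound by NF-Y, and to CCGGAAG, an ETS-family site.
PSMD9 (chr12:121888540-121888789, plus strand): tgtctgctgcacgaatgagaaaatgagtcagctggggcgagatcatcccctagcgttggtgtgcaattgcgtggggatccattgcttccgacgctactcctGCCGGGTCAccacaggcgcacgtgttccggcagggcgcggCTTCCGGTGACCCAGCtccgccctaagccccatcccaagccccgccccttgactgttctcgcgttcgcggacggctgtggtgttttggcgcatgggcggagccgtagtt
PSMC3 (chr11:47426440-47426689, minus strand): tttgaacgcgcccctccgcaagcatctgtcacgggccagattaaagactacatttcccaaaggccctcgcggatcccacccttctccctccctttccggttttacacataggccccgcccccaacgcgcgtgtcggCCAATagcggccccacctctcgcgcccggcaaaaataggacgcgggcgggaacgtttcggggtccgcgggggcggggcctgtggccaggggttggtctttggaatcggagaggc
PSMC4 (chr19:39970915-39971164, plus strand): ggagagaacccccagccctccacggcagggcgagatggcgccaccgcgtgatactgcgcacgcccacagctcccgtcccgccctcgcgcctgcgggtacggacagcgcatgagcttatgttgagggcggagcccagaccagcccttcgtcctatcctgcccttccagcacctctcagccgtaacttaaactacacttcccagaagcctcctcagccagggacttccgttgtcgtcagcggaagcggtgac
PSMD10 (chrX:108091543-108091792, minus strand): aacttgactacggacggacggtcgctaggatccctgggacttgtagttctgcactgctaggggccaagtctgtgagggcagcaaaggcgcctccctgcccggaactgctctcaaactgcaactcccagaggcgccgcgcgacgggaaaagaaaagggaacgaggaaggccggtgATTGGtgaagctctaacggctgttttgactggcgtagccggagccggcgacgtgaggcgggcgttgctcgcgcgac
PSMD9 held TGACNNNGC at 149 to 141 and at 102 to 94 bases before the start and CCGGAAG at 109 to 103, the last directly beside the second. PSMC3 held CCAAT at 114 to 110 and PSMD10 at 76 to 72 bases before the start. PSMC4 had no match to these 3 motifs in this window. The RefSeq starts lie inside some of the wider GENCODE gene spans given above, so that the last 59 bases of the PSMD9 window, 34 of PSMC3, 160 of PSMC4 and 76 of PSMD10 fall within the span, and with them the CCAAT match of PSMD10.

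Promoters were listed for 32 of the 37 tested genes, all but PSMA7, PSMB1, PSMB6, PSMB7 and PSMD4. TGACNNNGC was in 7 of the 32 (21.9%), against 13.2% of the 27305 genes with a listed promoter of the same length. CCAAT was in 16 (50%, against 37.0%) and CCGGAAG in 9 (28.1%, against 10.2%). Of the 14 genes that fell and had a promoter, 2 held TGACNNNGC, 7 held CCAAT and 5 held CCGGAAG. The genes that fell were thus 2 of the 7 with TGACNNNGC, 7 of the 16 with CCAAT and 5 of the 9 with CCGGAAG. They were 14 of all 32 with a promoter. Whether motifs differ between the genes that fell and the others was not tested. In all, 12 motifs were counted and these 3 were chosen for display after the counts were seen; among the others, TTCCGG, whose matches overlap those of CCGGAAG, was in 16 (50%, against 17.2%), and TGACTCAGC, TGACGTCA and TTTCGCG were in none of the 32. A match describes the letters and does not show binding.

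Genes of the pathway outside the rule were followed in 7 lists, of which 38 genes are reported here. Of these 37 were tested and 4 rose (10.8%, against 19.8% of all tested genes), 15 fell (40.5%, against 21.6%) and 18 did not pass. Their median log2 fold change was -0.10. Among the other assembly chaperones 1 of 5 rose (20%) and 2 fell (40%). With total counts 1 rose and 1 fell, while 3706 of all 14543 tested genes rose and 2394 fell. PSMG1 (chromosome 21), which helps to build the alpha ring, had 103, 109 and 111 CPM in MLL4KO and 68.5, 78.6 and 84.3 CPM in MLL4WT libraries, all MLL4KO values above all MLL4WT values, and rose 1.38-fold (log2 0.47 ± 0.07, edgeR adjusted p = 0.000199). PSMG3, also a chaperone of the 20S core, had 20.2, 20.3 and 17.3 CPM in MLL4KO and 30.8, 26.7 and 25.4 CPM in MLL4WT libraries. The groups did not overlap and PSMG3 fell by 28.9% (adjusted p = 0.00104). PAAF1, which binds base ATPases before they join the particle, had 15.7, 15.3 and 14.5 CPM in MLL4KO and 16.2, 18.2 and 20.7 CPM in MLL4WT libraries. It fell by 18.8% (adjusted p = 0.0256), called in 7 of the 17 alternatives and lost without any 1 library but MLL4WT replicate 1 (adjusted p up to 0.19). The partner of PSMG1, PSMG2, was at a log2 of -0.14 (adjusted p = 0.085), and PSMG4 at -0.12 (adjusted p = 0.355).

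Of 7 other genes linked to the 19S particle 3 fell (42.9%, against 21.6% of all tested genes) and none rose (against 19.8%). With GC and length trends taken out 5 fell, and with total counts 1 fell and 1 rose. Of all 14543 tested genes, 3486 fell and 2770 rose with these trends taken out, and 2394 fell and 3706 rose with total counts. ADRM1, a ubiquitin receptor of the base, had 201, 204 and 196 CPM in MLL4KO and 260.2, 254 and 248 CPM in MLL4WT libraries. The groups were apart, and ADRM1 fell by 21.1% (log2 -0.34 ± 0.04, edgeR adjusted p = 6.37e-05). ECPAS, a proteasome-binding scaffold, had 175, 174 and 185 CPM in MLL4KO and 188, 201 and 207 CPM in MLL4WT libraries and fell by 10.7% (adjusted p = 0.0206), a call lost without MLL4KO replicate 1 or 2 or MLL4WT replicate 2 or 3 (adjusted p up to 0.115). TXNL1, a proteasome-bound thioredoxin-like protein, fell by 8.46% (adjusted p = 0.0446), was called in 5 of the 17 alternatives and was lost without any 1 library but MLL4WT replicate 1, while SEM1, UCHL5, USP14 and UBE3C did not pass. Of the 4 other activator genes 1 fell (25%, near the 21.6% of all tested genes), and 2 with GC and length trends taken out. PSME3IP1, which encodes a protein that binds PSME3, fell by 31.0%, with 34.3, 32.5 and 34.6 CPM in MLL4KO and 44.4, 51 and 50.3 CPM in MLL4WT libraries (log2 -0.53 ± 0.07, adjusted p = 6.79e-05). PSME1, PSME2 and PSME4 did not pass.

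The immunoproteasome subunits that replace catalytic subunits in immune cells moved in opposite directions. PSMB9, which takes the place of PSMB6, had 3.13, 4.01 and 4.12 CPM in MLL4KO and 2.23, 1.99 and 2.13 CPM in MLL4WT libraries and rose 1.78-fold (log2 0.83 ± 0.21, edgeR adjusted p = 0.00725). PSMB10, which takes the place of PSMB7, had 15.7, 16.5 and 14.6 CPM in MLL4KO and 28.2, 25.4 and 26.8 CPM in MLL4WT libraries and fell by 41.4% (log2 -0.77 ± 0.08, adjusted p = 1.24e-05). In neither did the groups overlap. PSMB8 was at most 0.549 CPM in every library and was not tested.

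The list built around NFE2L1, whose pathway adjusts proteasome gene expression to demand, also held NFE2L2 and the small MAF partners of both. Of its 8 genes 5 fell (62.5%, against 21.6% of all tested genes) and none rose. All 8 log2 fold changes were below 0, and 7 of 8 with total counts. MAFK, a small MAF partner of NFE2L1 and NFE2L2, had 21.1, 18.5 and 20.5 CPM in MLL4KO and 38.9, 39.1 and 39.1 CPM in MLL4WT libraries. Its groups lay far apart relative to their spread, and it fell by 48.6% (log2 -0.96 ± 0.07, edgeR adjusted p = 9.56e-07). NFE2L2, the related factor that drives antioxidant genes, had 81.5, 80.2 and 89.1 CPM in MLL4KO and 108, 104 and 107 CPM in MLL4WT libraries and fell by 21.4% (adjusted p = 0.000285). Of the other small MAF genes, MAFF fell by 36.3% (adjusted p = 0.000502) and MAFG fell by 16.8% (adjusted p = 0.00124). SYVN1, a ubiquitin ligase of the endoplasmic reticulum, fell by 15.4% (adjusted p = 0.0108), but not without MLL4KO replicate 2 or 3 (adjusted p up to 0.0661). NFE2L1 itself did not pass (log2 -0.09, adjusted p = 0.135), nor did its processing enzymes DDI2 and NGLY1.

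Of the genes that encode ubiquitin, 2 are reported. UBB, a polyubiquitin gene, had 133, 125 and 125 CPM in MLL4KO and 13.7, 14.9 and 16.4 CPM in MLL4WT libraries. The groups lay far apart, and UBB rose 8.34-fold (log2 3.06 ± 0.07, edgeR adjusted p = 3.1e-11). RPS27A, a ubiquitin fusion with a ribosomal protein, had 509, 518 and 518 CPM in MLL4KO and 405, 490.4 and 504 CPM in MLL4WT libraries and did not pass (log2 0.14, adjusted p = 0.147).

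Of 9 reported genes for ubiquitin activation, shuttle factors and the p97 segregase, 1 rose (11.1%) and 3 fell (33.3%). Of all tested genes 19.8% rose and 21.6% fell. With GC and length trends taken out 6 fell, and 3486 of all 14543 tested genes. With total counts 1 fell and 2 rose, while 2394 of all tested genes fell and 3706 rose. RAD23B, a shuttle factor that carries ubiquitylated proteins to the proteasome, had 421, 414 and 434 CPM in MLL4KO and 467, 491 and 477 CPM in MLL4WT libraries and fell by 11.6% (edgeR adjusted p = 0.00559, and 0.0506 without MLL4KO replicate 2). UBQLN2, another shuttle factor, had 58.1, 56.4 and 60.4 CPM in MLL4KO and 52.8, 48.4 and 47.7 CPM in MLL4WT libraries and rose 1.18-fold (adjusted p = 0.00611). In neither gene did the groups overlap. Of the p97 cofactors, NPLOC4 fell by 11.5% (adjusted p = 0.0154) and UFD1 fell by 9.24% (adjusted p = 0.0369). NPLOC4 was lost without any 1 MLL4KO library, and UFD1 without any 1 library but MLL4WT replicate 1. Both were also lost with total counts (edgeR adjusted p = 0.0954 for NPLOC4 and 0.214 for UFD1), their highest values over the alternatives. Neither VCP, which encodes p97, nor UBA1, an activating enzyme, passed (adjusted p = 0.115 and 0.543).

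**Figure D5:**
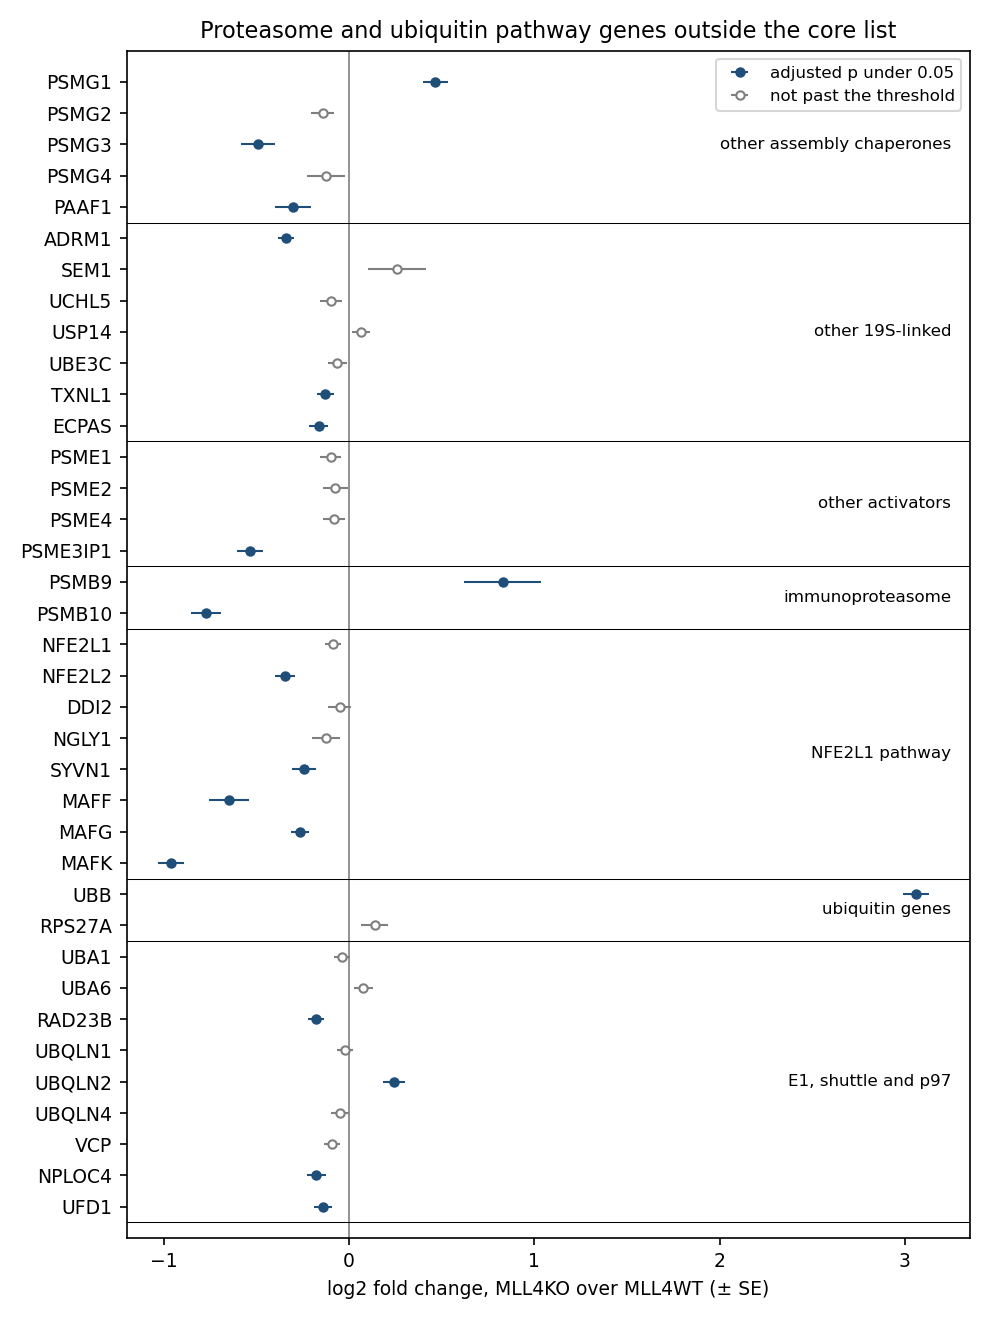
Log2 fold change of MLL4KO over MLL4WT with its standard error for the 37 tested and reported genes of the 7 pathway lists outside the proteasome genes. UBB (3.06) stands far to the right, MAFK (-0.96) and PSMB10 (-0.77) to the left, and 4 genes rose and 15 fell.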

How the data were processed

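The authors deposited expected counts for the 6 libraries, unnormalised whole numbers for 59715 Ensembl gene IDs, as the table's header and values show. Salmon 1.8.0, DESeq2 1.44.0 and hg38 are named in the submitters' processing notes without a role and with no annotation release. Symbols came from a gene name table, coordinates from GENCODE release 29, and promoters from RefSeq. PSMC3IP, a recombination gene, was not counted as a proteasome gene.

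Genes were filtered with filterByExpr (minimum count 10) and given TMM factors, and the genotypes were compared (MLL4KO over MLL4WT) by the quasi-likelihood test of edgeR 4.0.16 in R 4.3.3 (4 residual degrees of freedom), with Benjamini-Hochberg adjustment over 14543 genes and a threshold of 0.05. Tested proteasome genes held between 372 and 13065 counts in a library. Standard errors come from the quasi-likelihood F statistic, and 95% intervals are normal approximations. The test was checked on simulated data, where the share of false calls was above the one aimed at.

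Per-library values were given for PSMB5, PSMB6 and PSMB7, for up to 12 proteasome genes that fell and 12 that rose by smallest adjusted p, for up to 2 called genes in each direction of each pathway list, and for UBB. PSMA7, PSMB1, PSMD2, PSMD7 and RPS27A were added after their values were seen. A few genes of the pathway lists are not reported here, and list counts leave them out. The proteasome genes, the lists and the alternatives were chosen with earlier results of these data known.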

Additional observations from a re-analysis of the deposited data

How the results depend on the processing

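The 17 alternatives were other scaling factors, other filters, the DESeq2 1.42.0 Wald test, limma-voom, a replicate block, a flow cell term, removal of GC and length trends by lowess (span 0.3), thinning to the shallowest library and leaving out each library. None of the 17 called proteasome genes changed sign. The count of falls was 27 with the flow cell term and 9 to 27 over the leave-one-out fits. It was 9 without MLL4KO replicate 2, 27 without MLL4WT replicate 1 and otherwise 11 to 16. Of all tested genes 2316 fell without MLL4KO replicate 2 and 3822 without MLL4WT replicate 1, against 3136 in the main fit. The count of rises was 0 with DESeq2 and after thinning, 3 with GC and length trends removed, 3 with total counts, 2 with upper quartile factors and 0 to 1 over the leave-one-out fits. Of all tested genes 2090 rose with DESeq2, 2301 after thinning and 2770 with GC and length trends removed. With upper quartile factors 3561 rose, and 2163 to 3521 over the leave-one-out fits. With total counts the median log2 fold change over all genes was 0.058 and 11 proteasome genes fell. Of all tested genes 3706 rose and 2394 fell, against 2885 and 3136 by TMM. The proteasome median lay 0.095 below that of all genes under both scalings. Other scaling factors move all genes by nearly the same amount, so this offset could hardly have differed and tests nothing. The offset ranged from -0.136 to -0.0494 over all settings. Replicate numbers were shared between the genotypes, but same-numbered libraries did not deviate together (correlations 0.025, 0.034 and -0.015). Not every library correlated best with its own number. Each MLL4KO library correlated best with the MLL4WT library that shared its flow cell code. These values were small: 0.050 for MLL4KO replicate 1 with MLL4WT replicate 3, and 0.034 and 0.045 for MLL4KO replicates 2 and 3 with MLL4WT replicate 2. The value farthest from 0 was -0.081, for MLL4KO replicate 1 with MLL4WT replicate 2. With the replicate block 15 proteasome genes fell and 1 rose, with a median log2 fold change of -0.09. Of all tested genes 3024 fell and 2689 rose in that fit.

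The sign changed for 16 proteasome genes, none of them called in the main comparison. With GC and length trends removed the log2 fold change was -0.048 for PSMC2, -0.095 for PSMA4, 0.025 for PSMB3, 0.12 for PSMB6, 0.029 for PSMB7 and -0.0298 for PSMD5. With the flow cell term the log2 fold change was -0.057 for PSMC2, -0.073 for PSMA2 and -0.086 for PSMA4. After thinning the log2 fold change was 0.0042 for PSMC6, 0.007 for PSMD1 and 0.0009 for PSMB7. With total counts the log2 fold change was 0.024 for PSMD1, 0.0057 for PSMD12, 0.0054 for PSMD14, 0.014 for PSMA3, 0.0402 for PSMA5, 0.017 for PSMA6, 0.048 for PSMB6, 0.017 for PSMB7 and 0.0103 for POMP. With upper quartile factors the log2 fold change was 0.016 for PSMD1, 0.0057 for PSMA3, 0.032 for PSMA5, 0.0084 for PSMA6, 0.0399 for PSMB6, 0.0091 for PSMB7 and 0.0022 for POMP. Over the leave-one-out fits it ranged from -0.16 to 0.0033 for PSMC1, -0.043 to 0.11 for PSMC2, -0.17 to 0.028 for PSMC6, -0.104 to 0.0092 for PSMD1, -0.12 to 0.0089 for PSMD12, -0.13 to 0.005 for PSMD14, -0.073 to 0.13 for PSMA2, -0.11 to 0.013 for PSMA3, -0.0802 to 0.087 for PSMA4, -0.065 to 0.017 for PSMA5, -0.12 to 0.026 for PSMA6, -0.039 to 0.025 for PSMB6, -0.13 to 0.015 for PSMB7 and -0.096 to 0.022 for POMP. The cause of these changes was not tested. Depth and 3 libraries per genotype limit what differences could be seen.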
